A study of Mus musculus with 3 samples.

Results

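A group of 9 immune receptor and adaptor genes was examined in mouse macrophages: 5 C-type lectin receptors (Clec4e, Clec4d, Clec4n, Clec7a and Clec12a), 2 Trem receptors (Trem1 and Trem2) and 2 adaptors (Tyrobp and Card9). They were taken by symbol from the annotation, and all 9 members were found among 55536 annotated genes. The macrophages were primary cells grown from C57BL/6J bone marrow and given 100 ng/ml Lipid A for 20 min. Lipid A is the membrane anchor of bacterial lipopolysaccharide, and TLR4 is its receptor. Ribosome-depleted total RNA of the chromatin fraction, which is enriched for transcripts still attached to their genes, was sequenced in 3 libraries of 1 group. The labels call them biological replicates 1, 2 and 3, made from 1 µg, 250 ng and 500 ng of starting RNA. Each library has its own biosample under a shared donor entry, and whether separate animals were used is not stated, so the SD may in part be technical. Sex and age are recorded as not collected. No untreated macrophages were analysed here, so levels are reported and not a response to Lipid A, and no test between groups was made.

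As background, the lectin receptors of the group bind sugars and glycolipids of fungi and mycobacteria. Clec7a (Dectin-1) carries its own activating motif, while Clec4e (Mincle), Clec4d and Clec4n (Dectin-2) act through the adaptor Fcer1g. Both routes recruit the kinase Syk, and the adaptor Card9 then joins Bcl10 and Malt1 to switch on NF-kB. Clec12a carries an inhibitory motif. Trem1 and Trem2 have no signalling motif of their own and pair with Tyrobp (DAP12), which also recruits Syk.

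Library totals over annotated genes were 16141381, 16196661 and 12398651 expected counts (replicates 1, 2 and 3). Where a gene had 0 counts, up to 3 remain possible, equal to 0.186, 0.185 and 0.242 in CPM, the count scaled to a common total, and such floors and the count intervals cover counting error only. Levels are given in TPM, which scales counts for transcript length and library total. Coding genes held 15.8%, 18.0% and 24.7% of all TPM in replicates 1, 2 and 3, so TPM of every coding gene was diluted less in replicate 3. For comparisons between libraries, TPM was therefore also rescaled over coding genes. The cells carried the defining genes of macrophages, with 10 of 10 markers at 1 TPM or more in every library and a summed level of 608 to 1060 TPM. Markers of neutrophils, which also use several of these receptors, summed to 1.01 to 2.44 TPM, and none of the 10 reached 1 TPM in every library. The dendritic cell list summed to 2.79 to 3.39 TPM, with Batf3 the 1 marker of 7 at that limit. No marker of mast cells and basophils (7 genes), NK cells (6) or osteoclasts (5) reached it. The part of such cells in the levels below was not tested, and in bulk RNA fewer cells of a type and less RNA per cell cannot be told apart.

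Of the 9 members, 8 were present on chromatin, at 1 TPM or more in every library, and Trem1 was the exception. That limit was passed by 8942 of 22028 coding genes, or 40.6%, and the median of those was 9.07 TPM. Clec4d stood highest at 183.8 ± 40.5 TPM and Tyrobp lowest of the 8 at 17.9 ± 3.83 TPM (SD, n = 3 each). All 8 thus lay above the median of the coding genes that passed. The first place of Clec4d holds for TPM, while CPM does not scale for length. In CPM, Clec4d had 195.3, 92.4 and 125.1 in replicates 1, 2 and 3, below Trem2 at 196.8, 199.2 and 309.1. The count intervals of these 2 genes overlapped in replicate 1.

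**Figure D1:**
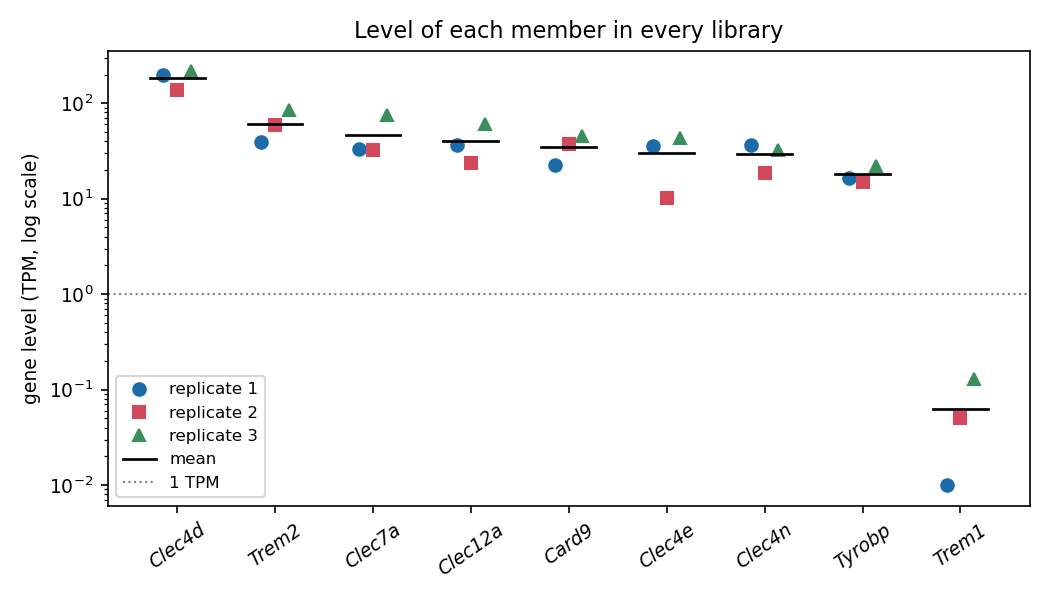
Level of the 9 members in TPM (log scale), 1 symbol per library and a bar for the mean of 3 libraries, with 1 TPM dotted. Clec4d lies between 138.1 and 215.44 TPM, 7 members lie between 10.07 and 85.43 TPM, and Trem1 lies at 0.13 TPM or below.

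Among the lectin receptors, Clec4d, the partner of Clec4e in glycolipid binding, had 197.85, 138.1 and 215.44 TPM in replicates 1, 2 and 3. No other member reached its lowest library, and 98.8% of the coding genes that passed the limit were lower. Clec7a, the receptor for beta-glucans of fungal walls, had 33.47, 32.69 and 74.62 TPM, a mean of 46.9 ± 24.0 TPM (SD, n = 3). Its highest value, in replicate 3, stood apart from the other 2, which were nearly equal. The annotation lists Clec7a as a polymorphic pseudogene, a class for genes that code for a protein in some strains only. Clec12a had 36.45, 23.52 and 60.77 TPM, a mean of 40.2 ± 18.9 TPM (SD, n = 3). It was again highest in replicate 3, and lowest in replicate 2.

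Clec4e, the receptor for mycobacterial cord factor, had 36.04, 10.07 and 43.56 TPM in replicates 1, 2 and 3, a mean of 29.9 ± 17.6 TPM (SD, n = 3). Replicate 2 lay well below the others, and the highest library exceeded it 4.33-fold. Clec4n, the receptor for fungal mannans, had 36.74, 18.6 and 32.47 TPM, a mean of 29.3 ± 9.48 TPM (SD, n = 3). Replicate 2 was lowest here too.

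The Trem receptors lay at opposite ends. Trem2, a receptor for lipids and lipoproteins, had 39.56, 59.03 and 85.43 TPM, a mean of 61.3 ± 23.0 TPM (SD, n = 3), and was the second highest member. Trem1, a receptor that amplifies inflammatory signals in neutrophils and monocytes, had 0.01, 0.05 and 0.13 TPM. These rest on 1, 2 and 5 counts, with exact 95% Poisson intervals of 0.0253 to 5.57, 0.242 to 7.22 and 1.62 to 11.7 counts. Trem1 was thus at or near the counting floor in each library. A processed pseudogene on the opposite strand, AC241601.2, overlaps it and had 0.0533 ± 0.0351 TPM (SD, n = 3), and with the use of strand not given, reads of the pair cannot be told apart.

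Of the adaptors, Card9 had 22.68, 37.48 and 45.04 TPM, a mean of 35.1 ± 11.4 TPM (SD, n = 3), lowest in replicate 1. Tyrobp had 16.61, 14.94 and 22.25 TPM, with the smallest spread over libraries of the 8 members. Trem2 was higher than its adaptor Tyrobp in 3 of 3 libraries, with no overlap and a ratio of means of 3.42. In a second set of deposited transcript tables the ranges of that pair did overlap, with means of 70.7 ± 21.3 TPM for Trem2 and 55.1 ± 10.9 TPM for Tyrobp (SD, n = 3 each).

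In order of mean level the members ran Clec4d, Trem2, Clec7a, Clec12a, Card9, Clec4e, Clec4n, Tyrobp and Trem1. Of the 8 pairs of neighbours in that order, 2 had ranges that did not overlap. Clec4d exceeded Trem2 by log2 ratios of 2.32, 1.22 and 1.33 in replicates 1, 2 and 3, and Tyrobp exceeded Trem1 in every library. The ranges of the 6 pairs between them, from Trem2 down to Tyrobp, overlapped. Compared within each library, Trem2 was above Clec7a, and Clec4n above Tyrobp, in 3 of 3 libraries. The 4 steps from Clec7a to Clec4n changed direction between libraries.

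How much of each member lay on isoforms that do not code for its protein is a readout of its own in chromatin RNA, since such isoforms include those with an intron kept. In the annotation the members have 2 to 7 isoforms each. In the first set of tables, retained-intron isoforms carried on average 89.9% of the TPM of Clec4e, 72.0% of Clec4d, 58.6% of Clec12a and 55.4% of Trem2. In the second tables these shares were 32.9% ± 4.74, 66.9% ± 3.08, 59.3% ± 1.09 and 45.7% ± 7.42 (SD, n = 3 each), so a majority held in both sets for Clec4d and Clec12a only, of these 4 genes. As background in the first tables, 7710 coding genes passed 1 TPM and have an isoform that does not code for protein. Their median retained-intron share was 35.9% ± 2.03 (SD of the 3 library medians). Of them, 24.8% exceeded 50% in every library, as did 3 of the members. In Clec4e, in the first tables, and in Trem2, in both, the leading isoform keeps whole introns. Clec4e-205 spans introns 2 (2375 bp) and 3 (72 bp) of the 5 introns of the coding isoform Clec4e-201, and Trem2-203 spans intron 1 (1861 bp) of the 4 introns of Trem2-201. Clec7a-203 runs 359 bp into intron 2 (1895 bp) of Clec7a-204, Clec4d-202 covers 270 of 829 bp of intron 3 of Clec4d-201, and Clec12a-202 covers 2606 of 4779 bp of intron 4 of Clec12a-201. The sequences below show where the paired isoforms part in Clec4e, Trem2 and Clec7a, the members in which the kept intron follows directly on a shared exon. Each starts with the last 30 bases of the shared exon in lower case and goes on, in capitals, with the 30 bases that follow in that isoform, read 5′ to 3′ on the gene's strand from the GENCODE M21 transcripts (GRCm38). The intron-retained lines begin their capitals with GT, the usual start of an intron. The introns lie at chr6:123286519-123288893 (minus strand) in Clec4e, chr17:48346596-48348456 (plus strand) in Trem2 and chr6:129469004-129470898 (minus strand) in Clec7a.
Clec4e-201, spliced: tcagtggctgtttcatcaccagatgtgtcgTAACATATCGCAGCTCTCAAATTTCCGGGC
Clec4e-205, intron retained: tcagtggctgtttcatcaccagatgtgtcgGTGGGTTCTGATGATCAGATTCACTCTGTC
Trem2-201, spliced: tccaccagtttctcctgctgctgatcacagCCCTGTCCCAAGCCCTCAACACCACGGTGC
Trem2-203, intron retained: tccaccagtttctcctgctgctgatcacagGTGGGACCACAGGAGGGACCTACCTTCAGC
Clec7a-204, spliced: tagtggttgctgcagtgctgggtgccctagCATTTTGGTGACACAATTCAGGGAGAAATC
Clec7a-203, intron retained: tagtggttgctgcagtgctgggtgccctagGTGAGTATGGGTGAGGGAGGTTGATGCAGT

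Clec4e had the largest share of its TPM on noncoding isoforms (retained intron, processed transcript or nonsense-mediated decay), at 91.6%, 92.8% and 88.0% in replicates 1, 2 and 3. The intron-retaining Clec4e-205 printed above had 23.5, 6.82 and 29.86 TPM, and the coding Clec4e-201 had 3.03, 0.73 and 5.23 TPM. The coding form was thus the minor one in every library, and both forms were lowest in replicate 2. Clec4d followed with 81.3%, 82.0% and 78.8%. Its retained-intron isoform Clec4d-202, of 593 nt, had 139.87, 99.1 and 158.3 TPM, and the coding Clec4d-201 had 37.06, 24.81 and 45.64 TPM. Most of the TPM that placed Clec4d first therefore lay on this short noncoding isoform. In expected counts, not scaled for length, Clec4d-202 had 1566, 729 and 763 of the gene's 3152, 1496 and 1551. Clec4d-201 had 1167, 567 and 682 counts. The coding isoform Clec4d-201 alone, at 35.8 ± 10.5 TPM (SD, n = 3), lay in the range of the other members' gene levels. That sets a part against wholes. Among single coding isoforms of the members, Clec4d-201 had the highest mean, before Card9-202 at 16.6 ± 4.22 TPM (SD, n = 3). In the second tables it was also highest, at 74.1 ± 26.7 TPM, before Tyrobp-201 at 35.4 ± 7.24 TPM (SD, n = 3 each).

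Clec12a had 61.7%, 52.0% and 62.1% on noncoding isoforms, with Clec12a-202 at 17.01, 9.46 and 27.15 TPM beside the coding Clec12a-201 at 13.95, 11.28 and 23.04 TPM. These ranges overlap, and the coding form was the higher of the pair in replicate 2. Trem2 had 54.0%, 47.0% and 66.5%, so its share fell on both sides of 50%. The intron-retaining Trem2-203 had 21.37, 27.75 and 55.56 TPM, against 10.79, 22.24 and 11.5 TPM for the coding Trem2-201. In replicate 3, Trem2-203 was highest while Trem2-201 was near its lowest value. Clec7a had 39.3%, 38.4% and 46.2%, all of it on Clec7a-203, and the form annotated as polymorphic pseudogene was counted with the coding ones.

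Clec4n has no retained-intron isoform in the annotation. Its noncoding share of 41.6% ± 10.9 (SD, n = 3) lay on a processed transcript and a decay isoform. In the first tables the leading isoform was the coding Clec4n-201 at 15.11, 6.96 and 17.47 TPM, and the leading noncoding one was Clec4n-204 at 12.31, 7.26 and 7.21 TPM. Card9 had 19.1% ± 5.76 and Tyrobp 2.13% ± 2.46 on noncoding isoforms (SD, n = 3 each), so both adaptors lay below every receptor that passed 1 TPM. Neither adaptor has a retained-intron isoform in the annotation, so such an isoform could not enter their share. Card9-202, a coding form, led with 12.47, 16.52 and 20.9 TPM, beside 3.45, 6.12 and 11.57 TPM for the processed transcript Card9-203. The coding Tyrobp-202 had 13.41, 8.64 and 8.03 TPM and the coding Tyrobp-201 2.94, 5.57 and 14.22 TPM. Which of the pair led thus differed between libraries in the first tables, on no more than 185 counts of the gene in a library, but not in the second tables, described below. Trem1 has no noncoding isoform in the annotation.

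Over 7710 coding genes that have such an isoform and passed 1 TPM, the median noncoding share was 51.2% ± 1.48 (SD of the 3 library medians), and 41.8% of genes exceeded 50% in every library. Of the 8 members that have such an isoform and passed 1 TPM, 3 exceeded 50% in every library, namely Clec4e, Clec4d and Clec12a. Clec7a is 1 of the 8 but, as a polymorphic pseudogene, not among the 7710 coding genes. As a count, 3 of 8 is near that background and is not a result about the members. Clec4e and Clec4d stood far above the median share and the adaptors far below it. The adaptors have no annotated retained-intron isoform, so their low share is bounded by the annotation and is not a measure of splicing.

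**Figure D2:**
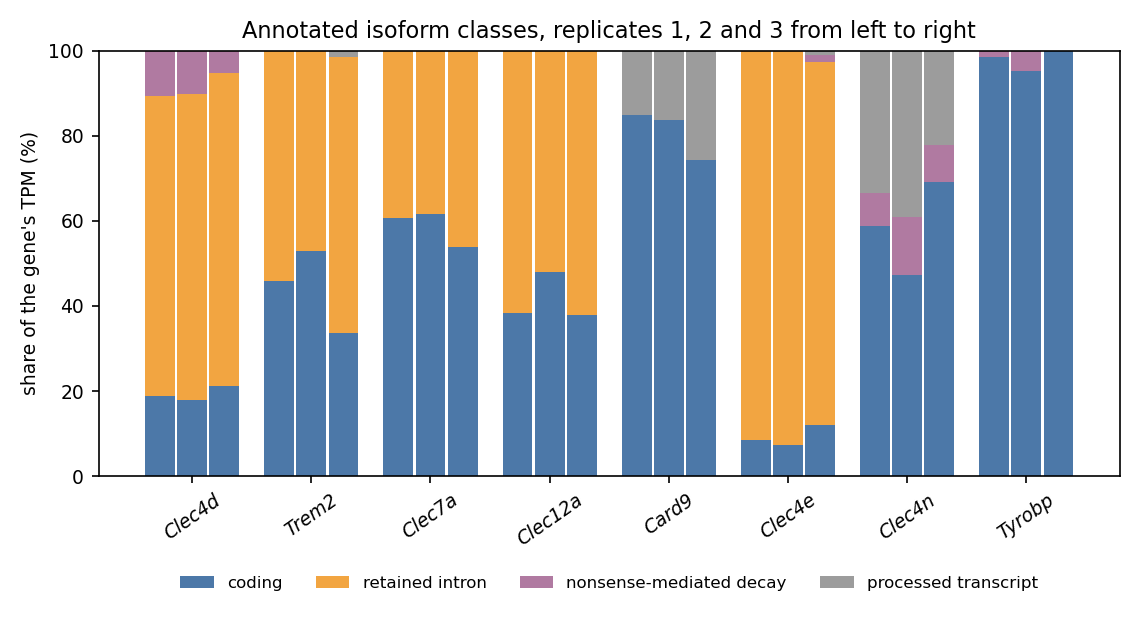
Share of each member's TPM (%) by annotated isoform class, 1 bar per library, for the 8 members at 1 TPM or more. Clec4e has 88.0% to 92.8% and Clec4d 78.8% to 82.0% outside the coding class, while Tyrobp has at most 4.82%.

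The second set of transcript tables, which the authors derived directly from reads, with no alignment file as input, gave higher mean TPM for all 9 members. Relative to coding genes not all of them stood higher, since the share of coding genes lying lower was 95.5% for Trem2 and 91.1% for Card9 in the second tables, and 97.1% and 93.8% in the first. The ratio of second to first was 3.55 for Clec4n, 3.07 for Tyrobp, 2.87 for Clec4e and 2.29 for Clec4d, and 1.15 for both Trem2 and Card9. Clec4d stayed first at 421.2 ± 132.0 TPM (SD, n = 3), and Clec4n and Clec4e moved ahead of Trem2 with 104.0 ± 49.9 and 85.8 ± 45.3 TPM (SD, n = 3 each). For Clec4e the difference lay mainly in 1 isoform. Clec4e-204, a decay isoform of 370 nt, had 62.9, 23.5 and 61.8 TPM in the second tables and 0, 0 and 0.69 TPM in the first, so it replaced Clec4e-205 as the leading isoform. For Clec4n the decay isoform Clec4n-205 led there with 39.0 ± 17.6 TPM, while the coding Clec4n-201 had 5.93 ± 3.55 TPM (SD, n = 3 each). Tyrobp-201 led in every library of the second tables, with 33.7, 29.2 and 43.4 TPM beside 15.0, 12.1 and 16.4 TPM for Tyrobp-202. The noncoding share of Clec4e, 94.1% ± 3.78, and of Clec4d, 82.6% ± 0.941 (SD, n = 3 each), stayed high in these tables, and that of Clec4n was 60.0% ± 1.94.

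**Figure D3:**
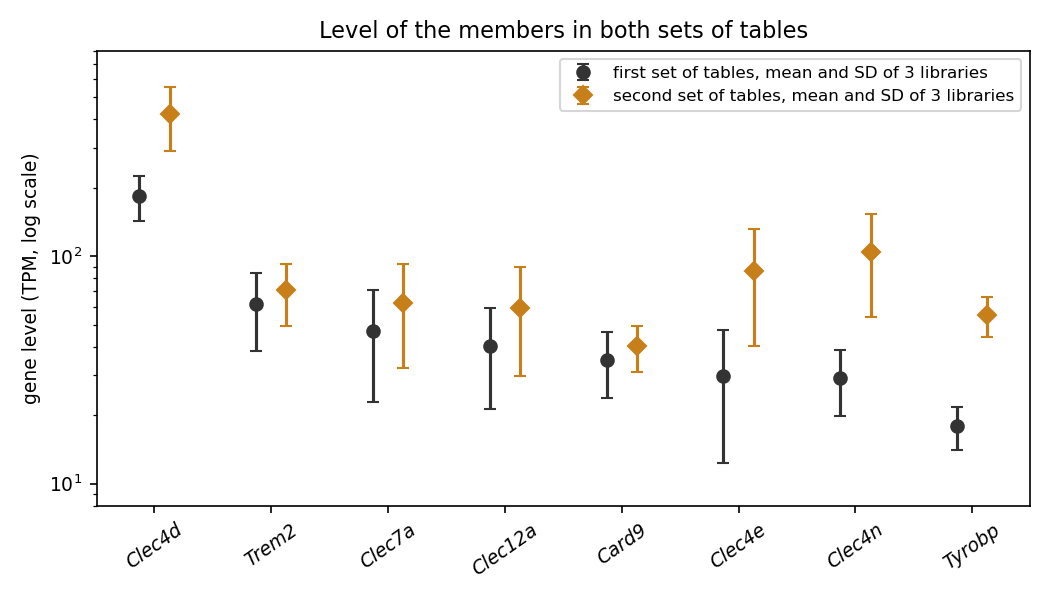
Mean level in TPM (log scale) with SD of 3 libraries, in the first and second set of tables, for the 8 members at 1 TPM or more. Clec4n, Clec4e, Tyrobp and Clec4d lie 2.29 to 3.55 times higher in the second set, and Trem2 and Card9 1.15 times.

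The members did not vary alike over the 3 libraries. On TPM rescaled over coding genes, replicate 2 was the lowest library for 6 of the 8 members at 1 TPM or more, namely all 5 lectin receptors and Tyrobp. Trem2 and Card9 were instead lowest in replicate 1. The share of all coding genes lowest in each library was not counted, so 6 of 8 describes the members alone. Clec4e had 228.1, 55.8 and 176.3 rescaled TPM in replicates 1, 2 and 3, a 4.09-fold range. Clec4n had 232.5, 103.1 and 131.4 (2.26-fold) and Clec12a 230.7, 130.3 and 246.0 (1.89-fold). Tyrobp and Trem2 moved least on this scale, with ranges of 1.27-fold and 1.38-fold, though Tyrobp had 11.5, 6.61 and 8.23 in CPM.

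Replicate 2 was set against the mean log2 of the other 2 libraries, gene by gene, and the same was done for the 8942 coding genes that passed the limit. Clec4e differed by −1.84 in log2, and 0.134% of those coding genes lay lower. Clec12a differed by −0.87, with 3.14% lower, and Clec4n by −0.76, with 4.63% lower. These 3 were outside the range of −0.74 to 0.57 that holds percentiles 5 to 95 of coding genes. Clec7a (−0.48), Clec4d (−0.45), Tyrobp (−0.23), Trem2 (0.15) and Card9 (0.36) lay inside it. In replicate 1, Clec4e (1.20), Clec4n (1.00) and Clec4d (0.62) were above their coding-gene range of −0.60 to 0.53. In replicate 3 none of these 8 members left the coding-gene range of −0.43 to 0.72. Of the 8, 5 lay above the other libraries in replicate 1 and below them in replicate 2, namely the 3 Clec4 genes, Clec12a and Tyrobp. The share of coding genes with that pattern was not counted either. Trem1, at 1 to 5 counts, was not read in this way.

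**Figure D4:**
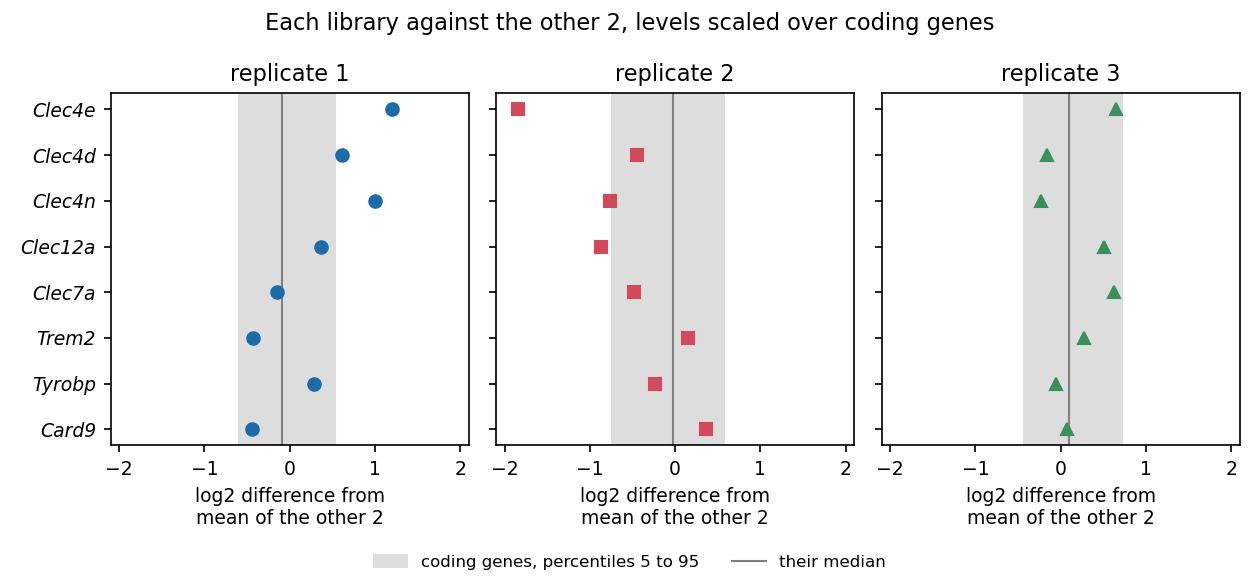
Log2 difference of each library from the mean of the other 2, on TPM rescaled over coding genes, for 8 members, with percentiles 5 to 95 of 8942 coding genes in grey. Clec4e lies at −1.84 in replicate 2 and 1.20 in replicate 1, while Card9 and Trem2 lie on the other side of 0 in both.

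For Clec4e, counting error was small beside the difference between libraries. It had 4216, 897 and 2437 expected counts, and replicate 2 had 55.4 CPM with an exact 95% Poisson interval of 51.8 to 59.1, against 261.2 CPM (253.4 to 269.2) in replicate 1. Other members at 1 TPM or more had between 102 counts (Tyrobp) and 3832 counts (Trem2) in a library. For Tyrobp the intervals of replicate 2, 5.41 to 7.98 CPM, and replicate 3, 6.71 to 9.99 CPM, overlapped, so its difference between those 2 libraries is within counting error. Its interval in replicate 1, 9.87 to 13.2 CPM, lay above that of replicate 2 and overlapped that of replicate 3. The biological coefficient of variation from edgeR was 39.1% for Clec4e, above that of 98.7% of the 13985 genes fitted, and 29.7% for Clec4n, above that of 94.3%. The 6 other members fitted lay between 19.6% (Trem2) and 24.8% (Clec4d), and the common value over all genes was 21.3%. The value of Clec4e was 20.0% without replicate 2 and 20.5% without replicate 1, so it rests on the contrast between those libraries. Replicate 2 was also made from the least RNA (250 ng), and in it Gm26917, Gm42418 and a further noncoding gene of chromosome 17 held 26.1% of counts, beside 15.4% and 10.8% in replicates 1 and 3. Each starting amount was used in 1 library, so amount and replicate cannot be told apart, and the part of either in the lower Clec4e level was not tested.

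The promoters of the members were compared, whether or not a member was lowest in replicate 2. RefSeq (GRCm38.p6) gave the promoter of 7 of the 9 members, and Clec4n and Tyrobp were not among them. In the 250 bases before each gene start as placed by RefSeq, matches to 5 motifs were counted on both strands. For Clec12a these bases lie inside the gene as annotated by GENCODE (chr6:129342691-129365303), not before its start there. The C/EBP motif TTGCNNAA matched in Clec4e and Clec12a and in 9.55% of 27025 promoters of that length. The AP-1 motif TGANTCA matched in Clec12a and Trem2 and in 6.87% of promoters. The Ets core GGAA matched 2 to 4 times in each of the 7, and at least once in 93.4% of promoters. The longer PU.1 core GAGGAAGT, which holds the letters of GGAA, and an NF-kB motif matched in none, beside 2.44% and 1.40% of promoters. The promoters with a C/EBP match are printed 5′ to 3′ on the gene's strand, with C/EBP and AP-1 matches in capitals. They lie at chr6:123289872-123290121 (minus strand) for Clec4e and chr6:129349994-129350243 (plus strand) for Clec12a, and a match is a description of the letters, not of a bound site.
Clec4e: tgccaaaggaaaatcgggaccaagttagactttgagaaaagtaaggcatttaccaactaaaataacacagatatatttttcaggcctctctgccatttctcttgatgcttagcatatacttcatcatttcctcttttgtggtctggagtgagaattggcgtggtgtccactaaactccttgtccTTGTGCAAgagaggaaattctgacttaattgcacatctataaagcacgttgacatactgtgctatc
Clec12a: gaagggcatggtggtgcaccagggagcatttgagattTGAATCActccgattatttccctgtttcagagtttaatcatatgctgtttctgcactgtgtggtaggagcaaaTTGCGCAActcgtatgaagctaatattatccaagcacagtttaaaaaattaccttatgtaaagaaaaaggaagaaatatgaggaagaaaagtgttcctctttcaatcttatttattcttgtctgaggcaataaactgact

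The capitals in the Clec4e promoter mark TTGTGCAA, and those in the Clec12a promoter mark TGAATCA for AP-1 and TTGCGCAA for C/EBP. TTGCGCAA reads the same on both strands, so it gave the 2 C/EBP matches counted in Clec12a.

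Along the genome (GRCm38), 5 of the members lie on chromosome 6 in clusters of lectin genes. Clec4n (chr6:123229843-123247021), Clec4d (chr6:123262111-123275265) and Clec4e (chr6:123281789-123289870) are consecutive, with gaps of 15089 and 6523 bp. Clec4e runs against the direction of the other two. Clec12a (chr6:129342691-129365303) and Clec7a (chr6:129461591-129472779) lie 96287 bp apart. The genes nearest to Clec7a and Clec12a were low, with Clec1a at 0.297 ± 0.202 TPM and Clec12b at 0.740 ± 0.488 TPM (SD, n = 3 each). Trem1 (chr17:48232768-48246924) and Trem2 (chr17:48346401-48354147) lie 99476 bp apart. Between them in level as well as in the same cluster, Treml1, whose product is a platelet receptor, had 9.45 ± 3.63 TPM 5768 bp from Trem2. Trem3, 852 bp from Trem1, was listed at 0 in the 3 libraries.

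Card9 (chr2:26352176-26360918) is overlapped on the opposite strand by Gm13562, with 1.92 ± 0.430 TPM (SD, n = 3), and reads of the pair cannot be told apart without strand. Snapc4, 1846 bp away, had 26.4 ± 3.77 TPM (SD, n = 3), a range that overlaps that of Card9. Tyrobp (chr7:30413760-30417585) lies 126 bp from Hcst, the gene of the adaptor DAP10, on the opposite strand. Hcst had 3.74, 1.99 and 3.25 TPM, below Tyrobp in each library. The highest neighbour of Tyrobp was Nfkbid, an atypical NF-kB inhibitor gene 4146 bp away, at 69.71, 39.65 and 60.79 TPM. It too was lowest in replicate 2.

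The partners of these receptors were then described from lists of annotated genes, with the number at 1 TPM or more in every library beside the 40.6% of coding genes that pass. Of the other adaptors with an activating motif or a related one, 2 of 3 passed. Fcer1g, the adaptor of Clec4e and Clec4n, had 17.32, 21.96 and 27.8 TPM, of the same order as Tyrobp. Hcst, described above, passed, and Cd247, the adaptor of T cell and NK cell receptors, had 0.720 ± 0.177 TPM (SD, n = 3). Among 12 other receptors that pair with Tyrobp, 4 passed, and the median was 0.36 ± 0.191 TPM. Cd300lb led with 21.2 ± 8.93 TPM, before Cd300ld with 5.55 ± 3.80 TPM and Pilrb2 with 2.85 ± 0.488 TPM (SD, n = 3 each). Klrk1 was lowest of those with any count at 0.113 ± 0.0493 TPM, and Trem3 and Siglec15 were listed at 0. Trem2 thus stood above every other Tyrobp-coupled receptor of the list by mean level. In the second tables the gap was small, with means of 70.7 TPM for Trem2 and 67.5 TPM for Cd300lb.

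Most listed genes of the pathway downstream of the receptors had RNA on chromatin at 1 TPM or more, which is not a measure of protein or signalling. Of 23 genes of Syk and Card9 signalling, 19 passed, with a median of 36.5 ± 5.98 TPM (SD of the 3 library medians). Syk, the kinase shared by these receptors, had 152.85, 165.36 and 217.95 TPM. Prkcd, the kinase that activates Card9, had 173.75, 157.61 and 227.77 TPM, and the membrane adaptor Lat2 had 155.4 ± 39.7 TPM (SD, n = 3). All 3 were higher than Card9 in each library. Card9's partners Malt1, a protease, and Bcl10 had 93.1 ± 37.9 and 24.1 ± 6.17 TPM (SD, n = 3 each), and both were named for their role after their values were seen. Rasgrf1, lowest of the list, had 0.0533 ± 0.0208 TPM.

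Inhibitory receptors and phosphatases that oppose this signalling passed in 7 of 8 cases, with a median of 16.6 ± 4.96 TPM. Sirpa, the receptor for the "do not eat me" signal CD47, had 435.98, 438.88 and 502.85 TPM, above every member in each library. Inpp5d, the lipid phosphatase SHIP1, had 156.3 ± 41.7 TPM, and the receptor Cd300a 40.5 ± 15.6 TPM (SD, n = 3 each). Clec12b did not pass.

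Of the other lectin genes of the 2 clusters on chromosome 6, 4 of 12 passed, with a median of 0.707 ± 0.186 TPM. Clec2d had 148.2 ± 42.1 TPM, Clec4a3 12.9 ± 3.82 TPM and Clec4a1 10.4 ± 4.10 TPM (SD, n = 3 each). At the low end was Clec4b2, with 0.04, 0 and 0 TPM. Of the other 4 annotated genes of the Trem cluster, Treml1 passed, Treml2 had 0.960 ± 0.275 TPM and Treml4 had 0.0233 ± 0.0404 TPM. These counts depend on the scale, with 9 of 12 lectins and 2 of 4 Trem genes passing on TPM rescaled over coding genes.

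Genes tied to Trem2 as ligand, sheddases or lipid-associated partners passed in 11 of 12 cases, with a median of 30.8 ± 8.64 TPM. Gpnmb, a lysosomal glycoprotein gene of lipid-laden macrophages, had 822.03, 753.01 and 1343.16 TPM. Ms4a7 had 167.9 ± 72.7 TPM and Spp1, which encodes osteopontin, 106.7 ± 35.2 TPM (SD, n = 3 each). Cst7 was lowest at 0.387 ± 0.254 TPM. In TPM, 6 of the 12 genes, among them Gpnmb, Ms4a7 and Spp1, were lowest in replicate 2. Another 5, among them Cst7, were lowest in replicate 1, as Trem2 was. These TPM were not rescaled, and coding genes were diluted least in replicate 3. No share over all coding genes was counted, so these numbers are not a result about the list or a likeness to Trem2.

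Last, the coding genes whose TPM lay closest to each member over the 3 libraries were found, by the root mean square difference in log2(TPM + 0.1). For Clec4e it was Tlr2, a receptor for bacterial lipoproteins, with 33.37, 10.04 and 45.26 TPM and a difference of 0.0715. Tlr2 was the single coding gene within 0.1 of Clec4e, and the next, Ifi213, lay at 0.359. Tlr2 was therefore low in replicate 2 as Clec4e was. Clec4n was nearest to Egr2, an early growth response transcription factor gene (0.166), and to Ccl3, a chemokine gene (0.176). Clec4d was nearest to Prkcd (0.161) and Clk1 (0.179), and no coding gene lay within 0.1 of Clec4d or of Clec4n.

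For Clec12a the nearest genes were Stap1 (0.0288) and Atp1b3 (0.0609), for Clec7a Dnaja1 (0.0585) and March7 (0.117), and for Trem2 Pcyt2 (0.0878) and Slc26a11 (0.0988). Card9 and Tyrobp lay where many genes lie, with 16 and 18 coding genes within 0.1. Their nearest were Incenp (0.0210) and 4930404N11Rik (0.0431) for Card9, and Reps2 (0.0264) and Slc25a51 (0.0598) for Tyrobp. The genes nearest to Trem1, Olfr544 and Gpr119, were like it near 0. With 3 libraries and a likeness that uses the level as well as its changes, these pairs are a description.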

How the data were processed

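RNA of the chromatin fraction, depleted of ribosomal RNA, gave 3 libraries. Per the file headers and the labels, the authors quantified reads of each library separately on assembly mm10 with annotation M21. The authors deposited expected counts and TPM per gene and per transcript, with RSEM-like columns. The authors also deposited other transcript tables with kallisto-like columns, the second set, which hold estimated counts and TPM derived from reads with no alignment file. Tools, versions, aligner and strand setting: not given in the sources used here. Values are split over annotated isoforms by estimation, so unspliced RNA can enter only through an annotated isoform.

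All 55536 gene identifiers matched GENCODE M21 (GRCm38, the same build as mm10). Spike-in, phiX and 26248 numeric entries were left out. Levels are means of TPM with SD. Members had exact 95% Poisson intervals on rounded expected counts. Coefficients of variation are tagwise values of edgeR 4.0.16 (R 4.3.3, TMM factors, filterByExpr, 13985 genes, intercept only). Trem1 did not pass that filter. Tested on simulated data, 200 genes made 3.13 times as variable were estimated at 1.53 times, so high values are understated. The members, gene lists and rules were chosen with earlier results of these data known. Named were all members, the 3 highest genes and the lowest with any count of each list, the highest coding neighbour within 20 kb and overlapping genes, the 2 most alike coding genes, and each member's leading and leading noncoding isoform; other names were chosen after their values were seen. For cell type markers, sums are given in place of these genes. The result of 1 marker list is not reported here. Alternatives were the second tables, TPM rescaled over coding genes, posterior mean TPM, limits of 0.5 and 2 TPM, pseudocounts of 1 and 0.01, DESeq2 1.42.0, no filter and each replicate left out. Python 3.11.15, numpy 2.4.6, pandas 2.3.3, scipy 1.17.1 and matplotlib 3.10.9 were used. Promoter sequences come from RefSeq.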

Additional observations from a re-analysis of the deposited data

How the results depend on the processing

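The presence of 8 of the 9 members at 1 TPM held in every library under each alternative run. In the second tables the mean levels were 421.2 TPM for Clec4d, 104.0 for Clec4n, 85.8 for Clec4e, 59.5 for Clec12a, 55.1 for Tyrobp and 0.149 for Trem1, and other members moved by less than 1 SD. Rescaling over coding genes gave 963 TPM for Clec4d, 307.8 for Trem2, 231.7 for Clec7a, 202.3 for Clec12a, 177.8 for Card9, 155.7 for Clec4n, 153.4 for Clec4e, 92.7 for Tyrobp and 0.289 for Trem1, a change fixed by its construction. By mean TPM, Clec4d stayed first and Trem1 last in each setting, but in CPM Clec4d lay below Trem2 in every library. Of the gene lists, 1 signalling adaptor passed at 2 TPM. Of the 12 other lectins, 8 passed in the second tables and 9 after rescaling. Of the Trem cluster, 2 genes passed in the second tables, 2 after rescaling and 2 at 0.5 TPM. Of the marker lists, 1 neutrophil gene passed in the second tables, after rescaling and on posterior means. For dendritic cells 2 passed in the second tables, after rescaling and at 0.5 TPM, and 0 at 2 TPM. For mast cells and basophils 1 passed after rescaling and on posterior means, and for osteoclasts 2 in the second tables and 1 after rescaling. The number of members with over 50% on noncoding isoforms in every library was within 1.5 times its value under all 5 alternatives. The coefficient of variation of Clec4e was 63.0% by DESeq2, and 20.5% and 20.0% without replicates 1 and 2. Other causes of these shifts were not tested. With 1 group of 3 libraries, no test between groups could be run, and Trem1, at 1 to 5 counts, is limited by depth.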
